A study of Mus musculus with 15 samples.

Results

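The genes described here are 9 enzymes of the pentose phosphate pathway and of cytosolic NADPH supply, chosen by symbol from the 24411 gene symbols of the deposited count files. G6pdx, Pgls and Pgd form the oxidative branch, Rpia, Rpe, Tkt and Taldo1 form the non-oxidative branch, and Me1 and Idh1 are other NADPH sources of the cytosol. The rule names symbols and no measured value, although it was set with earlier results of these data known. All 9 passed the filter on low counts that left 14098 genes for testing. PolyA RNA of frozen livers from FVB/NJ males was sequenced in 5 groups of 3 libraries. CTNNB1_NFE2L2_MET carried S45Y mutant β-catenin, G31A mutant NRF2 and human MET, and CTNNB1_NFE2L2 carried both mutants without MET. NFE2L2_MET carried G31A mutant NRF2 with human MET, CTNNB1_MET carried S45Y mutant β-catenin with human MET, and WT was wild-type liver. The labels give no age, vector, promoter or time of harvest, and they do not say whether a library was one tumour, a whole lobe or pooled tissue. Nothing in them says that the libraries of a group came from separate animals. If they did not, p-values measure only how far these libraries spread, which may be technical. Between libraries of a group, chi-square per gene given library totals ran from 13.2 (CTNNB1_MET replicates 1 and 2) to 107.56 (WT replicates 2 and 3). This spread is wider than counting noise alone, and its source was not tested.

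The oxidative branch turns glucose 6-phosphate into ribulose 5-phosphate and makes NADPH at the steps of glucose-6-phosphate dehydrogenase and 6-phosphogluconate dehydrogenase. The non-oxidative branch turns ribulose 5-phosphate into ribose 5-phosphate for nucleotides, or rearranges the sugars back into intermediates of glycolysis. In liver the NADPH feeds fatty acid and cholesterol synthesis and keeps glutathione and thioredoxin reduced, and several genes of the pathway are known targets of NRF2, the transcription factor that KEAP1 holds in check.

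Gene counts summed to between 14084343 and 20702618 per library. Levels are CPM, the count scaled to the TMM-adjusted total of its library, and changes are log2 fold changes ± standard error from edgeR's quasi-likelihood test, with a threshold of 0.05 on the adjusted p. Unmapped reads made up 10.3% of reads in CTNNB1_NFE2L2_MET, 10.7% in CTNNB1_NFE2L2, 13.7% in NFE2L2_MET, 17.2% in CTNNB1_MET and 22.9% in WT. This share was lower in every group with mutant NRF2 than in CTNNB1_MET or WT, and lower in CTNNB1_MET than in WT. Its part in the results was not tested. The quinone reductase Nqo1, a standard readout of NRF2, averaged 268 ± 23.7 CPM in CTNNB1_NFE2L2_MET, 248 ± 4.52 in CTNNB1_NFE2L2 and 100.6 ± 23.9 in NFE2L2_MET, against 9.14 ± 1.78 in CTNNB1_MET and 5.38 ± 0.489 in WT (SD, n = 3 each). The groups labelled with NRF2 thus stood apart from the others on that readout. In NFE2L2_MET, replicate 2 was the lowest of its group for 6 of the 9 genes.

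**Figure D1:**
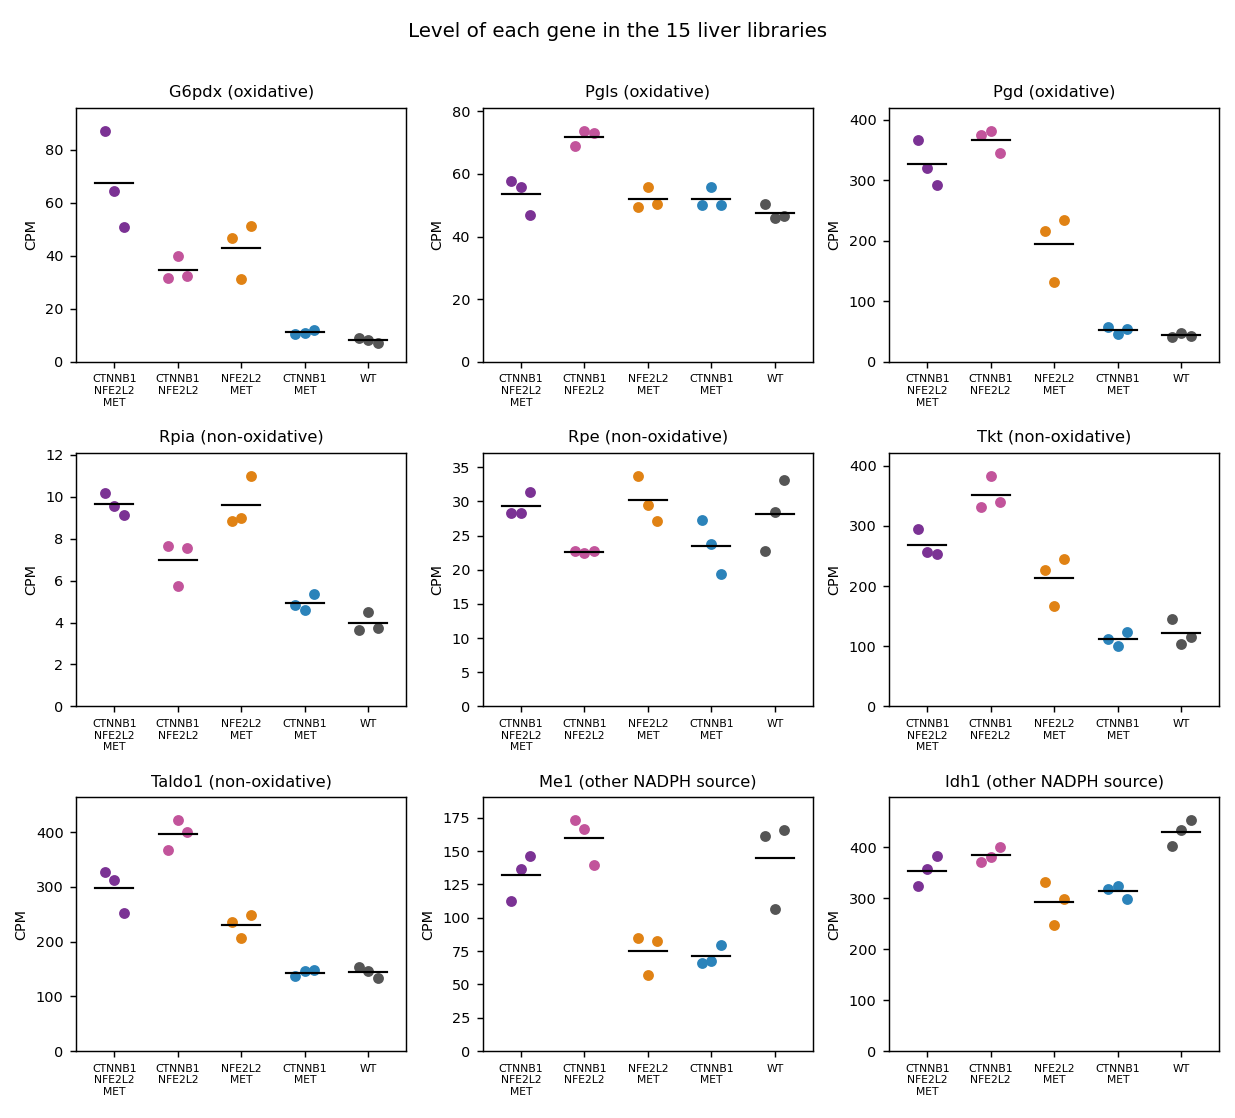
Level in CPM (y axis, from 0) of each of the 9 genes in every library, with groups along the x axis from CTNNB1_NFE2L2_MET to WT; each point is a library and the black line is the group mean. G6pdx and Pgd in all 9 libraries with mutant NRF2 lie above the CTNNB1_MET and WT libraries, while for Rpe the libraries with and without mutant NRF2 overlap and Idh1 is highest in WT.

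G6pdx encodes glucose-6-phosphate dehydrogenase, the entry and main control point of the oxidative branch (mm10 chromosome X, 74409483 to 74429194, minus strand). The CTNNB1_NFE2L2_MET libraries held 87.0, 64.4 and 50.9 CPM, the CTNNB1_NFE2L2 libraries 31.8, 39.8 and 32.2 CPM and the NFE2L2_MET libraries 46.9, 31.1 and 51.2 CPM. The CTNNB1_MET libraries held 10.6, 10.8 and 12.2 CPM and the WT libraries 8.92, 8.37 and 7.25 CPM. Every library with mutant NRF2 was therefore above every library without it. G6pdx was 6.004-fold higher in CTNNB1_NFE2L2_MET than in CTNNB1_MET (2.59 ± 0.21, adjusted p = 6.68e-07) and 8.25-fold higher than in WT (3.04 ± 0.21, adjusted p = 5.77e-08).

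Among the groups with mutant NRF2, G6pdx was highest in CTNNB1_NFE2L2_MET. It exceeded CTNNB1_NFE2L2 by 0.96 ± 0.19 (adjusted p = 0.00244) without overlap of libraries, and NFE2L2_MET by 0.65 ± 0.19 (adjusted p = 0.0184) with overlap. The second call was lost without CTNNB1_NFE2L2_MET replicate 1 (0.42, adjusted p = 0.105) and without NFE2L2_MET replicate 2 (0.46, adjusted p = 0.0774). CTNNB1_NFE2L2 and NFE2L2_MET did not pass against each other (-0.32 ± 0.19, adjusted p = 0.216), although they did without NFE2L2_MET replicate 2 (-0.50, adjusted p = 0.0451). CTNNB1_MET against WT did not pass either (0.46 ± 0.22, adjusted p = 0.164), with all 3 CTNNB1_MET libraries above all 3 WT libraries.

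Ikbkg, which encodes the NF-κB regulator NEMO, lies head to head with G6pdx on the opposite strand, and their annotated exons share 418 bases. The counts do not separate strands. Ikbkg averaged 126 ± 14.3 CPM in CTNNB1_NFE2L2_MET, 96.7 ± 13.6 in CTNNB1_NFE2L2 and 80.1 ± 6.41 in NFE2L2_MET, against 60.2 ± 6.27 in CTNNB1_MET and 86.3 ± 8.45 in WT. It rose in CTNNB1_NFE2L2_MET against CTNNB1_MET (1.07 ± 0.13, adjusted p = 1.74e-05), and in NFE2L2_MET against WT it did not pass (-0.11 ± 0.12) where G6pdx rose (2.40 ± 0.21). Of 75-base windows of the G6pdx transcript, a length chosen here because the read length is not given in the sources used, 4.19% also occur in transcripts of Ikbkg or of the copy G6pd2. G6pd2, an intronless copy of G6pdx, had at most 0.264 CPM as a group mean and was not tested.

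Pgls encodes 6-phosphogluconolactonase, which opens the lactone between both NADPH-making steps (chromosome 8, 71592176 to 71601092, plus strand). Its libraries held 57.7, 56.0 and 46.9 CPM in CTNNB1_NFE2L2_MET, 68.9, 73.7 and 73.1 in CTNNB1_NFE2L2, 49.4, 56.0 and 50.5 in NFE2L2_MET, 50.1, 55.7 and 50.2 in CTNNB1_MET and 50.3, 45.8 and 46.6 in WT. The CTNNB1_NFE2L2 libraries were above all others, and the other groups overlapped. Pgls rose in CTNNB1_NFE2L2 against WT (0.60 ± 0.09, adjusted p = 1.04e-04), against CTNNB1_MET (0.47 ± 0.09, adjusted p = 0.00120) and against NFE2L2_MET (0.47 ± 0.09, adjusted p = 0.00111). It fell in CTNNB1_NFE2L2_MET against CTNNB1_NFE2L2 (-0.43 ± 0.09, adjusted p = 0.00409). In CTNNB1_NFE2L2_MET against CTNNB1_MET its difference was 0.04 ± 0.09. Exons of Fam129c on the same strand share 776 bases with Pgls, and Fam129c was at most 2.88 CPM as a group mean. Of 988 windows of 75 bases in the longest coding transcript of Pgls, 0 occur in transcripts of other genes.

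Pgd encodes 6-phosphogluconate dehydrogenase, the second NADPH-making step of the branch (chromosome 4, 149149991 to 149166771, minus strand). Values were 366, 321 and 292 CPM in CTNNB1_NFE2L2_MET, 375, 381 and 345 in CTNNB1_NFE2L2 and 216, 132 and 234 in NFE2L2_MET. In CTNNB1_MET they were 58.0, 45.9 and 54.5 CPM, and in WT 41.8, 47.5 and 42.2 CPM. Its separation between libraries with and without mutant NRF2 was as complete as that of G6pdx. Pgd was 6.18-fold higher in CTNNB1_NFE2L2_MET than in CTNNB1_MET (2.63 ± 0.18, adjusted p = 6.93e-08), and against WT it was 8.37-fold higher in CTNNB1_NFE2L2 (3.07 ± 0.18, adjusted p = 6.08e-09) and 4.43-fold higher in NFE2L2_MET (2.15 ± 0.18, adjusted p = 5.95e-07).

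Unlike the order for G6pdx, the CTNNB1_NFE2L2 mean of Pgd was the highest (367 ± 19.5 CPM), and it did not pass against CTNNB1_NFE2L2_MET (326 ± 37.3 CPM), where the difference was -0.17 ± 0.17 for CTNNB1_NFE2L2_MET over CTNNB1_NFE2L2 (adjusted p = 0.494). Pgd was higher in CTNNB1_NFE2L2_MET than in NFE2L2_MET (0.75 ± 0.17, adjusted p = 0.00342) and higher in CTNNB1_NFE2L2 than in NFE2L2_MET (0.92 ± 0.17, adjusted p = 5.74e-04). CTNNB1_MET and WT overlapped (0.27 ± 0.17, adjusted p = 0.308). Within each library, Pgd counted 6.10 ± 0.322 times the CPM of Pgls in CTNNB1_NFE2L2_MET, 5.11 ± 0.366 in CTNNB1_NFE2L2 and 3.79 ± 1.24 in NFE2L2_MET, against 1.02 ± 0.176 in CTNNB1_MET and 0.924 ± 0.104 in WT. These ratios are not corrected for length, so only their change between groups can be read. Against WT, the lactonase transcript in CTNNB1_NFE2L2_MET differed by 0.17 ± 0.09 on the log2 scale and did not pass, while the dehydrogenases on both sides of it rose. Pgls did pass there without CTNNB1_NFE2L2_MET replicate 3 (0.26, adjusted p = 0.0369) and with total-count scaling (0.41, adjusted p = 0.00262).

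**Figure D2:**
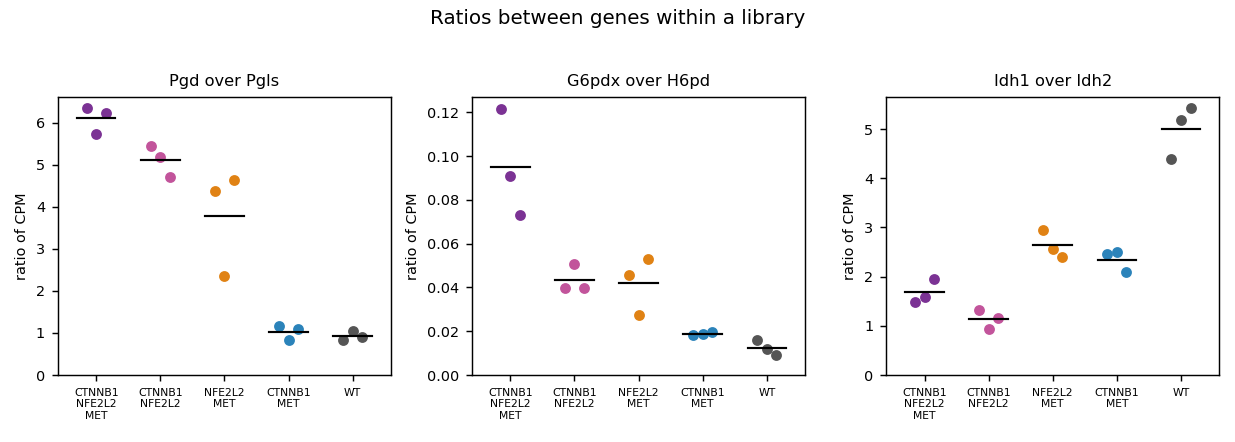
Ratio of the CPM of 1 gene to that of another within each library (y axes, from 0, no unit), with groups along the x axis; points are libraries and lines are group means. Pgd over Pgls and G6pdx over H6pd are higher in the groups with mutant NRF2, and Idh1 over Idh2 is highest in WT at 4.999.

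Rpia encodes ribose-5-phosphate isomerase, which leads from ribulose 5-phosphate to ribose 5-phosphate (chromosome 6, 70765720 to 70792232, minus strand). It is a low transcript, with 10.2, 9.57 and 9.15 CPM in CTNNB1_NFE2L2_MET, 7.63, 5.75 and 7.56 in CTNNB1_NFE2L2 and 8.84, 8.98 and 11 in NFE2L2_MET. CTNNB1_MET libraries held 4.84, 4.61 and 5.38 CPM and WT libraries 3.67, 4.51 and 3.72 CPM. The groups with mutant NRF2 did not overlap the groups without it. Against CTNNB1_MET, Rpia rose in CTNNB1_NFE2L2_MET (0.96 ± 0.15, adjusted p = 2.52e-04) and in NFE2L2_MET (0.96 ± 0.16, adjusted p = 5.89e-04). In CTNNB1_NFE2L2 against CTNNB1_MET it passed with less room (0.49 ± 0.16, adjusted p = 0.0224), and that call was lost without CTNNB1_NFE2L2 replicate 1 (adjusted p = 0.0792) or 3 (adjusted p = 0.0757) or CTNNB1_MET replicate 1 (adjusted p = 0.0639) or 2 (adjusted p = 0.0779). Rpia was higher in CTNNB1_NFE2L2_MET than in CTNNB1_NFE2L2 (0.46 ± 0.15, adjusted p = 0.0337), a call lost without any 1 of CTNNB1_NFE2L2_MET replicates 1, 2 and 3 or CTNNB1_NFE2L2 replicates 2 and 3, with adjusted p from 0.0507 to 0.157, and also without the low-count filter (adjusted p = 0.0550), with the libraries of the contrast alone (0.0693) and without the 3 libraries marked ADDED in the names of their deposited files (0.0528). It was lower in CTNNB1_NFE2L2 than in NFE2L2_MET (-0.46 ± 0.15, adjusted p = 0.0251), lost without CTNNB1_NFE2L2 replicate 2 (adjusted p = 0.129) or NFE2L2_MET replicate 3 (adjusted p = 0.117) on the counts of a single strand (-0.24, adjusted p = 0.319), with total-count scaling (-0.15, adjusted p = 0.460) and with the libraries of the contrast alone (adjusted p = 0.0513).

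Rpe encodes ribulose-5-phosphate epimerase, which leads to xylulose 5-phosphate, the substrate of transketolase (chromosome 1, 66700831 to 66719805, plus strand). Its libraries held 28.4, 28.4 and 31.4 CPM in CTNNB1_NFE2L2_MET, 22.7, 22.5 and 22.8 in CTNNB1_NFE2L2, 33.8, 29.5 and 27.2 in NFE2L2_MET, 27.3, 23.8 and 19.3 in CTNNB1_MET and 22.7, 28.5 and 33.2 in WT. All CTNNB1_NFE2L2_MET libraries were above all CTNNB1_MET libraries, although that contrast did not pass (0.32 ± 0.14, adjusted p = 0.0879). With TMM scaling and all libraries, no group with mutant NRF2 passed against CTNNB1_MET or WT, with the closest adjusted p of 0.0794 for CTNNB1_NFE2L2 against WT (-0.31 ± 0.14; adjusted p = 0.0164 without WT replicate 1). The single call among all contrasts was lower Rpe in CTNNB1_NFE2L2 than in NFE2L2_MET (-0.41 ± 0.14, adjusted p = 0.0307). It was lost on the counts of a single strand (-0.30, adjusted p = 0.110), with total-count scaling (-0.10, adjusted p = 0.601) and without any 1 of CTNNB1_NFE2L2 replicates 1, 2 and 3 or NFE2L2_MET replicates 1 and 2, with adjusted p up to 0.132. Rpe did not pass in CTNNB1_NFE2L2_MET against CTNNB1_NFE2L2 (0.37 ± 0.14, adjusted p = 0.0620), although the libraries did not overlap. It passed there with the libraries of the contrast alone (adjusted p = 0.0216), with total counts (0.0469), and without any 1 of WT replicates 1 and 3 or CTNNB1_MET replicate 3 (0.0372 to 0.0450). Rpe shares 558 exon bases with Kansl1l on the opposite strand, and 18.3% of its 75-base windows occur in Kansl1l transcripts. Kansl1l stood at 7.34 ± 1.65 CPM in CTNNB1_NFE2L2_MET and 10.6 ± 2.68 CPM in WT.

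Tkt encodes transketolase and Taldo1 transaldolase, the enzymes that exchange carbon units between sugars and connect the pathway to glycolysis (Tkt, chromosome 14, 30548359 to 30574720, and Taldo1, chromosome 7, 141392199 to 141402968, both plus strand). Tkt held 295, 257 and 253 CPM in CTNNB1_NFE2L2_MET, 332, 383 and 339 in CTNNB1_NFE2L2, 227, 166 and 245 in NFE2L2_MET, 112, 100.7 and 124 in CTNNB1_MET and 145, 104 and 115 in WT. All its libraries with mutant NRF2 were above the others. Taldo1 held 328, 312 and 252 CPM in CTNNB1_NFE2L2_MET, 368, 422 and 400 in CTNNB1_NFE2L2, 235, 207 and 250 in NFE2L2_MET, 136, 146 and 149 in CTNNB1_MET and 153, 147 and 134 in WT. Its groups with mutant NRF2 separated fully from the others as well, and CTNNB1_NFE2L2 was above every other group for both genes.

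Against CTNNB1_MET, Tkt rose 2.39-fold in CTNNB1_NFE2L2_MET (1.26 ± 0.15, adjusted p = 2.39e-05), 3.13-fold in CTNNB1_NFE2L2 (1.65 ± 0.15, adjusted p = 9.76e-07) and 1.90-fold in NFE2L2_MET (0.92 ± 0.15, adjusted p = 6.46e-04). Taldo1 rose 2.07-fold in CTNNB1_NFE2L2_MET (1.05 ± 0.12, adjusted p = 9.58e-06), 2.77-fold in CTNNB1_NFE2L2 (1.47 ± 0.12, adjusted p = 1.87e-07) and 1.61-fold in NFE2L2_MET (0.68 ± 0.12, adjusted p = 7.86e-04). In CTNNB1_MET against WT, Tkt (-0.11 ± 0.15) and Taldo1 (-0.01 ± 0.12) did not pass. Taldo1 was lower in CTNNB1_NFE2L2_MET than in CTNNB1_NFE2L2 (-0.42 ± 0.11, adjusted p = 0.0154), a call lost without CTNNB1_NFE2L2_MET replicate 3 (adjusted p = 0.0677) or CTNNB1_NFE2L2 replicate 2 (adjusted p = 0.0683), and Tkt did not pass there (-0.39 ± 0.15, adjusted p = 0.0693). Tkt passed with DESeq2 (adjusted p = 0.0344), with the libraries of the contrast alone (0.0248) and without NFE2L2_MET replicate 2 (0.0398). Taldo1 was also higher in CTNNB1_NFE2L2_MET than in NFE2L2_MET (0.37 ± 0.11, adjusted p = 0.0237), lost without any 1 of CTNNB1_NFE2L2_MET replicates 1 and 2 or NFE2L2_MET replicates 1 and 2, with adjusted p up to 0.108.

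**Figure D3:**
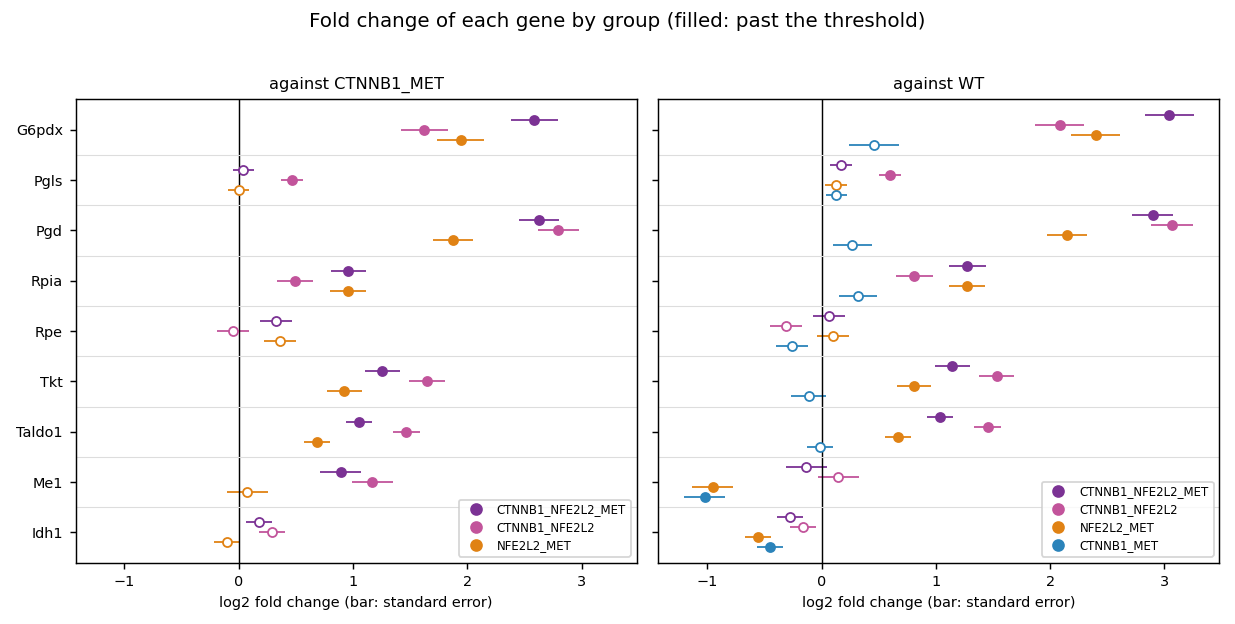
Log2 fold change (x axis) of each gene in the groups with mutant NRF2 against CTNNB1_MET (left), and in these and CTNNB1_MET against WT (right), from edgeR, with standard errors as bars; filled points passed the threshold. G6pdx and Pgd lie furthest to the right in CTNNB1_NFE2L2_MET and NFE2L2_MET, Tkt (1.65) lies level with G6pdx (1.62) in CTNNB1_NFE2L2 against CTNNB1_MET, and CTNNB1_MET against WT has filled points only for Me1 and Idh1, both below 0. The panels share libraries.

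Upstream sequence was read from RefSeq (GRCm38.p6, the mm10 assembly), where all 9 genes matched with 12 annotated starts. The 250 bases before each start were searched on both strands for the core of the antioxidant response element bound by NRF2 (TGACNNNGC), for a site of the β-catenin partners TCF and LEF (CTTTGAT) and for the CCAAT box (CCAAT). The antioxidant core was found for 1 of the 9 genes, G6pdx, on the reverse strand between 57 and 49 bases before the start. It occurs in 10.2% of 32851 promoters of the same length, and for 11.5% of 27025 gene symbols in at least 1 promoter. The TCF letters were found for Taldo1 alone (3.21% of promoters, 3.72% of gene symbols), and the CCAAT box for 4 genes (33.9% of promoters, 37.5% of gene symbols). In Taldo1 the TCF letters overlap a CCAAT box on the reverse strand by 2 bases. These are matches of letters and not measured sites. For G6pdx and Tkt, the 120 bases before the RefSeq start all lie in exons of the GENCODE annotation. All 250 searched bases of these genes lie inside the gene as GENCODE places it, so sequence before their GENCODE starts was not searched. Exon overlap of the 120 bases was 66 for the first Pgd start, 57 for Rpia and at most 39 at the other starts. The antioxidant and TCF matches are shown because NRF2 and β-catenin were among the genes added, 5′ to 3′ on the strand of the gene, with the matched letters in capitals.
G6pdx chrX:74428919-74428947 (minus strand, antioxidant core): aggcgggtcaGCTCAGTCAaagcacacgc
Taldo1 chr7:141392136-141392159 (plus strand, TCF letters): tttagctttgCTTTGATtggccag

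Me1 encodes cytosolic malic enzyme, which makes NADPH while turning malate into pyruvate (chromosome 9, 86581371 to 86695953, minus strand). Its libraries held 112, 137 and 147 CPM in CTNNB1_NFE2L2_MET, 173, 167 and 140 in CTNNB1_NFE2L2, 84.7, 57.1 and 82.3 in NFE2L2_MET, 66.0, 67.4 and 79.7 in CTNNB1_MET and 161, 107 and 166 in WT. Its groups thus fell into a different order from the pathway enzymes: all NFE2L2_MET and CTNNB1_MET libraries were below all others. Against WT, Me1 fell in NFE2L2_MET (-0.95 ± 0.18, adjusted p = 0.00167) and in CTNNB1_MET (-1.03 ± 0.18, adjusted p = 0.00126). It did not pass in CTNNB1_NFE2L2_MET (-0.13 ± 0.18) or in CTNNB1_NFE2L2 (0.14 ± 0.18).

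CTNNB1_NFE2L2_MET had more Me1 than CTNNB1_MET (0.89 ± 0.18, adjusted p = 0.00152) and more than NFE2L2_MET (0.82 ± 0.18, adjusted p = 0.00306), and it did not pass against CTNNB1_NFE2L2 (-0.28 ± 0.18, adjusted p = 0.272). CTNNB1_NFE2L2 exceeded CTNNB1_MET (1.17 ± 0.18, adjusted p = 1.49e-04) and NFE2L2_MET (1.1 ± 0.18, adjusted p = 2.54e-04). NFE2L2_MET and CTNNB1_MET overlapped (0.07 ± 0.18, adjusted p = 0.830). Of its 75-base windows 23.1% occur in transcripts of the gene models Gm7049 and Gm48795, so part of the gene may give no uniquely mapped reads.

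Idh1 encodes the cytosolic and peroxisomal isocitrate dehydrogenase that makes NADPH (chromosome 1, 65158616 to 65186500, minus strand). It held 323, 357 and 382 CPM in CTNNB1_NFE2L2_MET, 371, 380 and 401 in CTNNB1_NFE2L2, 331, 247 and 298 in NFE2L2_MET, 318, 324 and 299 in CTNNB1_MET and 402, 434 and 453 in WT. WT libraries were above those of every other group. The fall against WT passed in CTNNB1_MET (-0.45 ± 0.12, adjusted p = 0.0136) and in NFE2L2_MET (-0.56 ± 0.12, adjusted p = 0.00309), and the first was lost without the ADDED libraries (-0.38, adjusted p = 0.0925). In CTNNB1_NFE2L2_MET it missed the threshold (-0.28 ± 0.12, adjusted p = 0.0553), and in CTNNB1_NFE2L2 it did not pass (-0.16 ± 0.12, adjusted p = 0.263). The CTNNB1_NFE2L2_MET difference from WT passed with DESeq2 (adjusted p = 0.0185), with median-ratio scaling (0.0470), and without any 1 of WT replicate 1, CTNNB1_NFE2L2_MET replicate 3 or NFE2L2_MET replicates 1 and 2 (0.0353 to 0.05). Against CTNNB1_MET, Idh1 did not pass in CTNNB1_NFE2L2 (0.29 ± 0.12, adjusted p = 0.0618), but it did with DESeq2 (0.0165), both other scalings, single-strand counts, the libraries of the contrast alone, and without WT replicate 2 or NFE2L2_MET replicate 2 (0.00577 to 0.0484). Idh1 was also higher in CTNNB1_NFE2L2 than in NFE2L2_MET (0.39 ± 0.12, adjusted p = 0.0140), lost without NFE2L2_MET replicate 2 (0.29, adjusted p = 0.0754).

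Counted together, 6 of the 9 genes were higher in CTNNB1_NFE2L2_MET than in CTNNB1_MET, groups that differ by label in mutant NRF2. The other 3 did not pass, and of all 14098 tested genes 18.4% rose and 15.4% fell there. The members' median was 0.96 and that of all genes -0.01. Against the same CTNNB1_MET libraries, CTNNB1_NFE2L2 had 7 genes higher and the remaining pair uncalled (17.9% of all genes higher and 17.2% lower), and NFE2L2_MET had 5 higher and 4 uncalled (7.36% higher and 6.96% lower). G6pdx, Pgd, Rpia, Tkt and Taldo1 were the 5 genes higher in all 3 groups with mutant NRF2, both against CTNNB1_MET and against WT. Those contrasts share the CTNNB1_MET or the WT libraries, so they are not independent of each other.

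Against WT, CTNNB1_NFE2L2_MET had 5 of the 9 higher and 4 uncalled (26.5% of all genes higher and 23.4% lower), and CTNNB1_NFE2L2 had 6 higher and 3 uncalled (24.5% higher and 24.2% lower). NFE2L2_MET had 5 higher, and Me1 and Idh1 lower (13.5% higher and 9.89% lower). In CTNNB1_MET, Me1 and Idh1 were lower and the other 7 genes did not pass (11% higher and 6.22% lower). G6pdx came closest to a rise there, with an unadjusted p of 0.0524 from edgeR and an adjusted p of 0.150 from DESeq2.

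CTNNB1_NFE2L2_MET and NFE2L2_MET differ by label in mutant β-catenin, and 16.4% of all genes were higher in the first and 14.3% lower. G6pdx, Pgd, Taldo1 and Me1 were higher there, and the other 5 did not pass. This count of 4 became 2 without CTNNB1_NFE2L2_MET replicate 1 or without NFE2L2_MET replicate 2, and Pgd and Me1 passed in both of those fits. It became 7 with total-count scaling, which added Pgls (0.41), Tkt (0.69) and Idh1 (0.64). With that scaling 6133 of all genes were higher and 795 lower in this contrast, against 2314 and 2011 with TMM. Idh1 also passed with DESeq2 (adjusted p = 0.0377) and without NFE2L2_MET replicate 1 (0.0380). CTNNB1_NFE2L2_MET and CTNNB1_NFE2L2 differ by label in human MET, and 13.1% of all genes were higher in the first and 11.8% lower. G6pdx and Rpia were higher there and Pgls and Taldo1 lower, 2 of the 9 each way, counts near those shares. The count of 4 in this contrast became 2 without CTNNB1_NFE2L2_MET replicate 3, without CTNNB1_NFE2L2 replicate 2 or without the ADDED libraries. CTNNB1_NFE2L2 over NFE2L2_MET, which differ in β-catenin and MET at once, had 6 genes higher and Rpia and Rpe lower, where 18.3% of all genes were higher and 18.9% lower.

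The split of all genes into higher and lower depends on scaling, because total-count scaling moved the median of all genes by up to 0.36 on the log2 scale, in CTNNB1_NFE2L2_MET against NFE2L2_MET. Of all calls, 54.5% were higher in CTNNB1_NFE2L2_MET against CTNNB1_MET with TMM and 82.7% with total counts, and in CTNNB1_NFE2L2_MET against NFE2L2_MET these shares were 53.5% and 88.5%. They were 53.1% and 73.4% in CTNNB1_NFE2L2_MET against WT, 50.3% and 67.9% in CTNNB1_NFE2L2 against WT, and 57.8% and 35.3% in NFE2L2_MET against WT. For the doubles they were 51.1% and 75.7% in CTNNB1_NFE2L2 against CTNNB1_MET, 51.4% and 32.2% in NFE2L2_MET against CTNNB1_MET, and 49.2% and 82.0% in CTNNB1_NFE2L2 against NFE2L2_MET. No call of the 9 genes changed direction with total counts. In CTNNB1_NFE2L2_MET against CTNNB1_MET, total counts added Pgls (0.31, adjusted p = 0.0190), Rpe (0.58, adjusted p = 0.00520) and Idh1 (0.44, adjusted p = 0.0122), so that all 9 genes were called higher with that scaling. Of all 14098 tested genes, 4970 were called higher and 1038 lower there with total counts, against 2597 and 2168 with TMM.

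Summed over its 3 genes, the oxidative branch stood at 447 ± 60.7 CPM in CTNNB1_NFE2L2_MET, 473 ± 22.4 in CTNNB1_NFE2L2 and 289 ± 61.6 in NFE2L2_MET, against 99.6 ± 3.04 in WT, and over 112.4 to 118.7 CPM in the CTNNB1_MET libraries. In the groups with mutant NRF2 most of this sum was Pgd, while Pgls and Pgd contributed similar CPM in CTNNB1_MET and WT. The 4 genes of the non-oxidative branch summed to 605 ± 58.1 CPM in CTNNB1_NFE2L2_MET, 778 ± 52.1 in CTNNB1_NFE2L2 and 483 ± 63.8 in NFE2L2_MET, against 284 ± 11.7 in CTNNB1_MET and 299 ± 22.8 in WT. Tkt and Taldo1 made up most of this sum in every group. In CTNNB1_NFE2L2_MET they averaged 268 and 297 CPM, against 9.63 for Rpia and 29.4 for Rpe. Me1 and Idh1 together gave 486 ± 47.3 CPM in CTNNB1_NFE2L2_MET, 544 ± 2.98 in CTNNB1_NFE2L2, 367 ± 57.4 in NFE2L2_MET and 385 ± 6.83 in CTNNB1_MET, against 574 ± 40.1 in WT. These sums are not corrected for length, so each can be read only between groups.

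**Figure D4:**
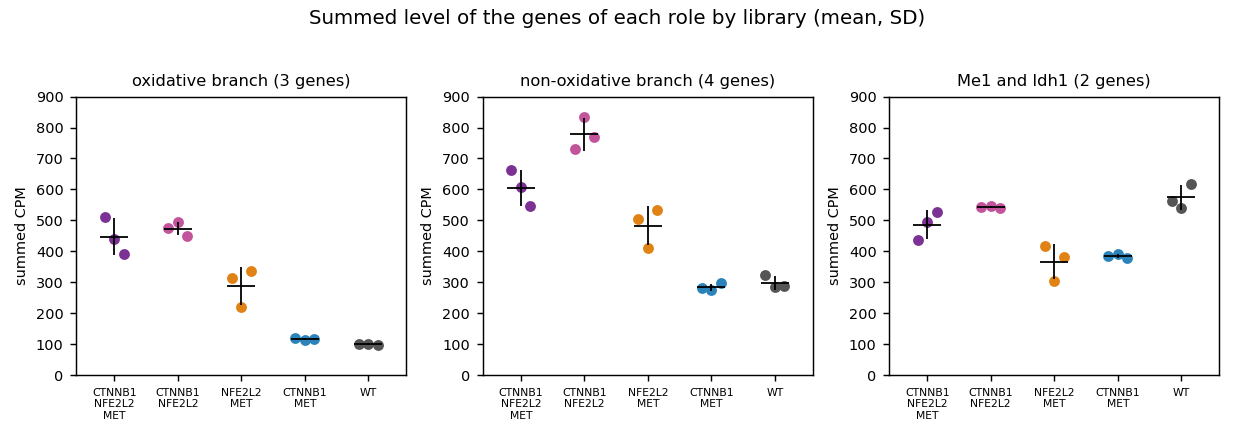
Summed CPM (y axes, from 0 to the same limit) of the oxidative genes, the non-oxidative genes, and Me1 with Idh1, by library and group; points are libraries, and the mark and bar are the mean and SD. The sums of both branches of the pathway are higher in the 3 groups with mutant NRF2 than in CTNNB1_MET and WT, and the sum of Me1 and Idh1 is highest in WT.

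Levels of different genes can be compared only per length of annotated exon. In CTNNB1_NFE2L2_MET, Taldo1 led with 218 ± 29.4 CPM per kilobase, before Pgd with 147 ± 16.8 and Idh1 with 143 ± 12.0, and Rpia was last with 5.27 ± 0.287. In WT, Idh1 led with 173 ± 10.3 CPM per kilobase, before Taldo1 with 106.2 ± 7.05, and Pgd stood at 19.8 ± 1.43, below Pgls at 40.4 ± 2.05. G6pdx was 25.4 ± 6.88 CPM per kilobase in CTNNB1_NFE2L2_MET and 3.08 ± 0.321 in WT, where only Rpia was lower (2.17 ± 0.258).

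The 13 other pentose phosphate genes listed include 10 that were tested. Of these, 4 rose, 1 fell and 5 did not pass in CTNNB1_NFE2L2_MET against CTNNB1_MET (median 0.22), where 18.4% of all genes rose and 15.4% fell. Tigar, a phosphatase that lowers fructose 2,6-bisphosphate and so favours the pathway over glycolysis, rose there (0.87 ± 0.13) and was 25.5 ± 1.91 CPM in CTNNB1_NFE2L2_MET and 13.9 ± 1.46 in CTNNB1_MET. Prps2, which makes phosphoribosyl pyrophosphate from ribose 5-phosphate, rose (0.73 ± 0.12), and its relative Prps1 did not pass (0.08 ± 0.12). The phosphoglucomutases Pgm1 (0.99 ± 0.18) and Pgm2 (0.89 ± 0.11) rose. H6pd, the dehydrogenase that makes NADPH inside the endoplasmic reticulum, was 707 ± 8.81 CPM in CTNNB1_NFE2L2_MET and 593 ± 17.9 in CTNNB1_MET and did not pass (0.25 ± 0.13), while it was higher in NFE2L2_MET than in WT (0.61 ± 0.13).

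A list of 20 other genes around NADPH and NADP supply also holds carriers such as Mpc2, so its counts are not counts of NADPH-making enzymes. Of these genes 19 were tested, and in CTNNB1_NFE2L2_MET against CTNNB1_MET 5 rose and 4 fell (median -0.14), counts near the 18.4% and 15.4% of all genes. Idh2, the mitochondrial counterpart of Idh1, rose there (0.66 ± 0.13) and reached 212 ± 15.4 CPM in CTNNB1_NFE2L2_MET, 343 ± 61.8 in CTNNB1_NFE2L2, 110.9 ± 13.9 in NFE2L2_MET and 134 ± 7.58 in CTNNB1_MET, against 86.3 ± 4.73 in WT. The ratio of Idh1 to Idh2 was 1.68 ± 0.250 in CTNNB1_NFE2L2_MET, 1.14 ± 0.192 in CTNNB1_NFE2L2, 2.64 ± 0.273 in NFE2L2_MET and 2.35 ± 0.223 in CTNNB1_MET, against 4.999 ± 0.548 in WT, and no library of another group reached the WT range. Mitochondrial malic enzyme Me2 rose (1.29 ± 0.21), as did the folate-cycle enzyme Mthfd2 (1.69 ± 0.25). The mitochondrial pyruvate carrier subunit Mpc2 fell (-0.59 ± 0.11), and the transhydrogenase Nnt (-0.22 ± 0.10) and the NAD kinase Nadk (-0.14 ± 0.11) did not pass. Me3 was not tested, with at most 0.458 CPM as a group mean.

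Users of NADPH and of the pathway's sugars were counted in the same contrast, where 18.4% of all genes rose and 15.4% fell. Of 18 NADPH-using reductases 10 rose and 2 fell (median 0.84), among them Nqo1 (4.88 ± 0.19), the carbonyl reductases Cbr3 (6.08 ± 0.31) and Cbr1 (2.91 ± 0.15), Ptgr1 (4.0 ± 0.26) and the glutathione reductase Gsr (2.77 ± 0.17). Of 23 genes of nucleotide synthesis 11 rose and 12 did not pass (median 0.49), among them the CTP synthase Ctps (1.67 ± 0.18), and the purine enzymes Aprt (1.25 ± 0.10), Adss (0.95 ± 0.11) and Hprt (0.81 ± 0.10). Of 14 lipogenic genes 10 fell and 4 did not pass (median -0.98), with the fatty acid synthase Fasn at -1.14 ± 0.25 and its regulator Srebf1 at -1.08 ± 0.22. The desaturases Fads2 (-1.84 ± 0.23) and Fads1 (-1.25 ± 0.17) fell as well. Among 24 genes around glucose 6-phosphate 8 rose and 9 fell (median -0.12), with Ugp2 (1.60 ± 0.22) and the hexokinase Hk3 (1.39 ± 0.21) higher, and Fbp1 (-1.78 ± 0.20) and the glucose transporter Slc2a2 (-1.13 ± 0.16) lower. Of 14 genes listed as NRF2 reporters 11 rose and 3 did not pass (median 2.12). That list also holds Nfe2l2, which encodes NRF2, and Keap1, Nfe2l1, Bach1 and Mafg, so its counts are not counts of readouts alone. Whether reads of the added NRF2 counted towards Nfe2l2 was not tested. The lists share some genes.

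For each of the 9 genes the tested genes with the most similar log2 CPM over all 15 libraries were looked up. The 15 libraries fall into 5 groups, so these values of Pearson's r mostly describe the group means and carry no test. Pgd was closest to the sulfiredoxin Srxn1 (r = 0.993), the glycogen branching enzyme Gbe1 (0.991) and Nqo1 (0.990). G6pdx was closest to the transporter Abcc5 (0.979), Pygb (0.975) and Serpinb6a (0.975), Rpia to Ptgr1 (0.963), and Taldo1 to Abhd4 (0.990), while Tkt was closest to Taldo1 itself (0.979). Me1 was closest to Csad (0.941), an enzyme of taurine synthesis that was 289 ± 35.8 CPM in CTNNB1_NFE2L2_MET, 394 ± 8.42 in CTNNB1_NFE2L2, 145 ± 62.5 in NFE2L2_MET and 120 ± 22.7 in CTNNB1_MET, against 376 ± 112 in WT. Idh1 was closest to Dlat (0.896), Pgls to Grina (0.925) and Rpe to Tnpo1 (0.916).

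In tissue RNA, fewer cells of a type and less RNA per cell cannot be told apart. Summed CPM of 8 hepatocyte markers ranged over 65550 to 72120 in CTNNB1_NFE2L2_MET, 26500 to 35570 in CTNNB1_NFE2L2, 136700 to 182100 in NFE2L2_MET, 129200 to 139300 in CTNNB1_MET and 79940 to 103700 in WT, and none was at 0. Against WT, 7 of these 8 fell in CTNNB1_NFE2L2_MET and 7 in CTNNB1_NFE2L2. In CTNNB1_MET (median -0.167) and in NFE2L2_MET (median 0.165), 2 rose and 6 did not pass against WT, although the sums were above WT. In CTNNB1_NFE2L2_MET against CTNNB1_MET, 7 of the 8 fell. Of 8 macrophage markers 6 rose there, with sums of 411 to 621 CPM in CTNNB1_NFE2L2_MET, 427 to 575 in CTNNB1_NFE2L2, 372 to 457 in NFE2L2_MET, 258 to 330 in CTNNB1_MET and 205 to 230 in WT. Of the same 8, 6 rose in CTNNB1_NFE2L2 and 1 in NFE2L2_MET against CTNNB1_MET, and 4 rose in CTNNB1_MET against WT. Sums of 6 cycling markers were 170 to 235 CPM in CTNNB1_NFE2L2_MET, 137 to 169 in CTNNB1_NFE2L2, 16.4 to 27.7 in NFE2L2_MET, 53.7 to 78.6 in CTNNB1_MET and 12.7 to 15.96 in WT. Cholangiocyte sums were 80.4 to 126 CPM in CTNNB1_NFE2L2_MET, 40.3 to 62.6 in CTNNB1_NFE2L2, 175.5 to 271.4 in NFE2L2_MET, 56.8 to 62.7 in CTNNB1_MET and 59.6 to 146 in WT. The part of these cell types in the levels of the 9 genes was not tested.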

How the data were processed

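The submitters' processing notes name Trimmomatic, STAR and mm10; no version or annotation release is given here. The deposited files hold raw counts per gene as STAR writes them, and the unstranded column was used because column 3 held 49.7 to 49.9% of both strand columns. Reads on the lines that name no gene (6.85 to 9.74% without a gene, 1.48 to 1.96% ambiguous) stayed out of totals. Members, lists and tests were chosen with earlier results of these data known.

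All 15 libraries were fitted in R 4.3.3 with edgeR 4.0.16 (TMM, filterByExpr by group, 1 coefficient per group, robust quasi-likelihood F test) and adjusted by Benjamini-Hochberg over 14098 genes, with a threshold of 0.05. Standard errors come from the F statistic. The procedure was tested on simulated data. Alternatives were DESeq2 1.42.0, median-ratio and total-count scaling, no filter, single-strand counts, the libraries of a contrast alone, a term for or removal of 3 libraries with ADDED in their file names (replicate 3 of CTNNB1_NFE2L2_MET, CTNNB1_MET and WT; the mark is not explained), and each library left out. Similarity used log2 CPM with a prior count of 2. Positions and exon overlaps come from GENCODE M21 on mm10. Genes named beside the 9 members are, per list, the 4 with the smallest p in CTNNB1_NFE2L2_MET against CTNNB1_MET, a fixed set of relatives such as H6pd, Idh2 and Fasn, the most similar genes, and genes sharing exon bases with a member.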

Additional observations from a re-analysis of the deposited data

How the results depend on the processing

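No paired analysis was possible because replicate numbers only name the libraries within a group. Values are log2 fold changes from edgeR unless said otherwise, and the cause of each shift was not tested. Of 9 genes in CTNNB1_NFE2L2_MET against NFE2L2_MET, 4 passed, against 7 with total-count scaling, 2 with the libraries of the contrast alone and 2 to 4 when leaving out a library. In CTNNB1_NFE2L2_MET against CTNNB1_NFE2L2 4 passed, against 2 without the ADDED libraries and 2 to 5 when leaving out a library. In CTNNB1_MET against WT 2 passed, against 1 (Me1) without the ADDED libraries. Among all genes, the count in CTNNB1_NFE2L2_MET against NFE2L2_MET was 4325, and 6928 with total counts. It was 3520 in CTNNB1_NFE2L2_MET against CTNNB1_NFE2L2, and 2259 without CTNNB1_NFE2L2 replicate 2. In CTNNB1_MET against WT it was 2429, 1505 with those libraries alone and 1294 without CTNNB1_MET replicate 1. In NFE2L2_MET against WT it was 3303, 2115 with those libraries alone and 2137 without NFE2L2_MET replicate 3, and in NFE2L2_MET against CTNNB1_MET 2018, and 1343 without CTNNB1_MET replicate 2.

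Differences that changed sign had not passed the threshold. With total counts these were Rpe in CTNNB1_NFE2L2_MET against NFE2L2_MET (0.3234), Me1 in CTNNB1_NFE2L2_MET against WT (0.1027), Idh1 in CTNNB1_NFE2L2 against WT (0.0203), Pgls (-0.0068) and Rpe (-0.0227) in NFE2L2_MET against WT, Rpe in CTNNB1_NFE2L2 against CTNNB1_MET (0.1577) and Me1 in NFE2L2_MET against CTNNB1_MET (-0.0177). With single-strand counts they were Taldo1 in CTNNB1_MET against WT (0.0057) and Rpe in CTNNB1_NFE2L2 against CTNNB1_MET (0.0557). Without a filter they were Rpia in CTNNB1_NFE2L2_MET against NFE2L2_MET (-2e-04; -0.015 with those libraries alone) and Pgls in NFE2L2_MET against CTNNB1_MET (0.0019).

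When leaving out a library, in CTNNB1_NFE2L2_MET against CTNNB1_MET Pgls ranged over -0.015 to 0.1284. In CTNNB1_NFE2L2_MET against NFE2L2_MET Pgls ranged over -0.0138 to 0.13, Rpia over -0.0544 to 0.1116 and Rpe over -0.1093 to 0.0513. Against WT, Rpe ranged over -0.0702 to 0.1969 in CTNNB1_NFE2L2_MET and -0.0319 to 0.2349 in NFE2L2_MET, Me1 over -0.019 to 0.2585 in CTNNB1_NFE2L2, and Tkt over -0.2229 to 0.0315 and Taldo1 over -0.0642 to 0.0282 in CTNNB1_MET. Rpe ranged over -0.1737 to 0.075 in CTNNB1_NFE2L2 against CTNNB1_MET. In NFE2L2_MET against CTNNB1_MET, Pgls ranged over -0.058 to 0.0499, Me1 over -0.0267 to 0.2333 and Idh1 over -0.2028 to 0.0054.

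The other values of the 9 genes kept their direction. Further calls changed, most of them given with each gene above. With the libraries of the contrast alone, G6pdx (adjusted p = 0.0911) and Taldo1 (adjusted p = 0.0724) no longer passed in CTNNB1_NFE2L2_MET against NFE2L2_MET, and without the ADDED libraries Taldo1 (adjusted p = 0.0648) no longer passed in CTNNB1_NFE2L2_MET against CTNNB1_NFE2L2. Without CTNNB1_MET replicate 1, Rpe passed in CTNNB1_NFE2L2_MET against CTNNB1_MET (0.4483, adjusted p = 0.0357). Rpia had the fewest counts of the 9 genes in each group, with 188 to 199 in CTNNB1_NFE2L2_MET libraries and 51 to 76 in WT libraries.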
